A study of Mus musculus with 26 samples.

Results

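Broad H3K4me2 domains are stretches of chromatin over which dimethylation of lysine 4 of histone H3 (H3K4me2) stays high well beyond the width of an ordinary promoter peak. They were chosen here in the library from bone marrow of GFI1-WT mice. The 5′ ends of reads with a mapping quality of 10 or more were counted in fixed 1-kb bins of the 19 autosomes of mm10, and a domain was a run of 6 or more consecutive bins that each held 20 or more reads. Of 34652 runs of any length, 2144 (6.19%) were this long and 32508 were shorter. The same rule found 1915 domains among 38967 runs (4.91%) in the library labelled GFI1-KD. The read number per bin and the run length are therefore what chose the domains, and they are given below as a description.

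H3K4me2 marks the promoters and enhancers of genes that are active or can become active. Marked regions that run far into a gene are known mostly from genes that define a cell's identity, such as transcription factors of its lineage. GFI1 is a zinc-finger repressor of blood progenitors and granulocytes that brings LSD1 (Kdm1a), a demethylase of mono- and dimethylated lysine 4, and its CoREST partners to target genes. PU.1 (Spi1) and the C/EBP factors activate many of the myeloid genes that GFI1 represses.

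The study addressed how loss of LSD1 activity and GFI1-mediated repression bear on PU.1 target genes in myeloid cells. H3K4me2 was measured by chromatin immunoprecipitation and sequencing in lineage-negative bone marrow cells, isolated on magnetic columns from untreated C57BL/6 mice, in 1 library labelled GFI1-WT and 1 labelled GFI1-KD. How the latter mice were generated, their age and any pooling of mice are not stated in the labels. RNA was measured in other cells, namely cultured C57BL/6 myeloid progenitors transformed by Hoxa9 and Meis1 (H9M) or by MN1. Both carried the strain label CreERT2-;LSD1TM1Schuele in all groups, the knockouts included, and grew with IL3, IL6 and SCF. Groups of 3 libraries were controls (CTL), LSD1 knockouts (KO) induced with 0.1 µM 4-hydroxytamoxifen for 72 h, and CTL cells given 1 µM all-trans retinoic acid (ATRA). The labels do not say whether the CTL cells also received 4-hydroxytamoxifen, or whether the libraries of a group came from separate cultures, so p-values measure only the spread between these libraries.

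The GFI1-WT library held 8949072 reads past the mapping quality filter and the GFI1-KD library held 9538627, with a read length of 60 bases and no duplicate positions on the autosomes. On the X chromosome they held 170889 and 196291 reads, and on the Y chromosome 1530 and 98. Whatever lies behind the Y chromosome difference, such as the sex of the mice, cannot be told apart from the genotype label. With 1 library per genotype no test between them was possible, and exact (Clopper-Pearson) 95% intervals cover counting error only. Lineage-negative marrow is a mixture, so a region that fewer cells carry and a region with less mark per cell cannot be told apart. Densities are in RPKM, reads per kb scaled to the reads kept in each library, and ratios are GFI1-KD over GFI1-WT densities. Scaling the libraries to their reads in bins with under 10 reads (1848108 and 1541326) instead multiplies every ratio by 1.28, a log2 shift of -0.35 in the GFI1-KD reads, so that only a ratio under 0.782 stays below 1 on both scales.

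The miRNA genes give the most compact view of what the domains cover. Of 919 annotated autosomal miRNA hairpins, 50 (5.44%) lay in 38 of the domains. The mature sequences below are those of the best known blood miRNAs among them, shown because their domains ranged from almost gone to enlarged in the GFI1-KD library. They are RefSeq sequences for GRCm38.p6, written 5′ to 3′ with the seed (bases 2 to 8) in capitals. Pairs that share a seed stand together.

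miR-144-3p: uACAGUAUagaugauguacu

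miR-451a: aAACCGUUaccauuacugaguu

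miR-142a-3p: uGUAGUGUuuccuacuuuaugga

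miR-196b-5p: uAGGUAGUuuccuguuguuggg

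miR-21a-5p: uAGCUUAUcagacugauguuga

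let-7i-5p: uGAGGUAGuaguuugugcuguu

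The next 6 fall into 3 pairs, each with 1 shared seed.

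miR-15b-5p: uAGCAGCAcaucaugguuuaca

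miR-16-5p: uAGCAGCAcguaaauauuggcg

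miR-17-5p: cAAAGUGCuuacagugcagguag

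miR-20a-5p: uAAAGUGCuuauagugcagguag

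miR-19a-3p: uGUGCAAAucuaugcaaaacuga

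miR-19b-3p: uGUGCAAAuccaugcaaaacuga

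The genes of miR-144 (mature strand at chr11:78073047-78073066, plus strand) and miR-451a (chr11:78073186-78073207, plus strand), a pair made in red cell precursors, shared the 8-kb domain chr11:78068001-78076000, which overlaps the Eral1 gene. That domain held 443 GFI1-WT and 44 GFI1-KD reads, a ratio of 0.0932 (0.0667 to 0.127). Every bin of it held fewer reads in GFI1-KD, with 20 to 98 reads per bin in GFI1-WT and 1 to 15 in GFI1-KD. The gene of miR-196b, which lies between the Hoxa genes, sat in a domain with a ratio of 1.66. Domains of the other miRNAs printed above differed little: the ratio was 1.06 for that of miR-142, a miRNA of all blood cells, which lies at Tspoap1. It was 1.01 for miR-21a, 0.991 for let-7i, 0.924 for the miR-17 to miR-92 cluster, which gives both the miR-17 and the miR-19 pair, and 0.895 for the miR-15b and miR-16-2 domain at Smc4. Over all 50 hairpins the ratio ran from 0.0932 to 1.69, the latter at the domain with Mir5135. Less known hairpins in domains with a difference included Mir3069 (0.614), Mir8116 (0.635), Mir5122 (0.730) and Mir1934 (1.37).

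Promoters of 6 domain genes are printed as examples. Kel, Rhd, Siglece and Ctsg were taken only among promoters that already hold the letters marked in them, so those matches are not a result. Kel and Rhd carry red cell surface antigens and their domains were among those with the lowest ratios. Siglece, a sialic acid receptor of myeloid cells, and Ctsg, the granule protease cathepsin G, had domains with some of the highest ratios. Irf8 and Cdk6 are shown as CpG-rich promoters of a domain higher in GFI1-KD and of one of the longest domains. Except for Cdk6, Irf8 and Siglece, which the naming rule took by length or ratio, these genes were picked after their values were seen. Each run is the 250 bases before the RefSeq start, GRCm38.p6, 5′ to 3′ on the gene's strand. Capitals mark AGATAA (the core bound by GATA factors) on either strand in Kel and Rhd.

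Kel (chr6:41704326-41704575, minus strand): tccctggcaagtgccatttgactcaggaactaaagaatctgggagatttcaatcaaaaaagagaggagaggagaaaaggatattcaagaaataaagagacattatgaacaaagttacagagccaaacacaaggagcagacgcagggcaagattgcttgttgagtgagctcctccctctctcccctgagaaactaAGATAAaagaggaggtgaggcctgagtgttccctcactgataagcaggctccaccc

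Rhd (chr4:134864286-134864535, plus strand): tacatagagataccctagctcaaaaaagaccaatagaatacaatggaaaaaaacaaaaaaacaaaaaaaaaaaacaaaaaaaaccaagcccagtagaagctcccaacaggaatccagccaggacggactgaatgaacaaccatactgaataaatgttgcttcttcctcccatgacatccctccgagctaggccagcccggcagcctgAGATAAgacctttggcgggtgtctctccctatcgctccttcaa

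Capitals mark GAGGAA (the core bound by PU.1) on either strand, thus also TTCCTC, in the next pair.

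Siglece (chr7:43660162-43660411, minus strand): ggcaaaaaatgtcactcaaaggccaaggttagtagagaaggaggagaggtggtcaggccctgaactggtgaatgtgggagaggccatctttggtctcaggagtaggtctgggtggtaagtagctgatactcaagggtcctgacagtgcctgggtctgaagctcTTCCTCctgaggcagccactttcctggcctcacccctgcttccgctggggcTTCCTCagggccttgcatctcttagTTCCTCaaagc

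Ctsg (chr14:56102575-56102824, minus strand): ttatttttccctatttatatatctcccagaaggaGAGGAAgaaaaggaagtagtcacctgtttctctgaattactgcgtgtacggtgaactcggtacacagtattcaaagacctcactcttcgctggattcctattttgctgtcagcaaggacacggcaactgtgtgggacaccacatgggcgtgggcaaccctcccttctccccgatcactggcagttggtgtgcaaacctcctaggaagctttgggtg

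Capitals mark CpG dinucleotides in the last pair, 29 in Irf8 and 22 in Cdk6.

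Irf8 (chr8:120736108-120736357, plus strand): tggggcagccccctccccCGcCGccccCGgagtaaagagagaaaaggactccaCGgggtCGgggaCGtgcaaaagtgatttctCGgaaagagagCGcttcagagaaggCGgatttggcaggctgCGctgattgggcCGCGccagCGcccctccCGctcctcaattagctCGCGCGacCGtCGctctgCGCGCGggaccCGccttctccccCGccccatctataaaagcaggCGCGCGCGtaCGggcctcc

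Cdk6 (chr5:3343643-3343892, plus strand): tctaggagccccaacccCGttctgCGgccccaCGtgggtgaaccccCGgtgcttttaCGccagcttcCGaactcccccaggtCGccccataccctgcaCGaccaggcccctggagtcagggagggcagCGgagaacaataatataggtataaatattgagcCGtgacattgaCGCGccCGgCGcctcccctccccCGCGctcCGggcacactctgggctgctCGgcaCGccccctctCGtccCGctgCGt

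The 2144 domains covered 16750 kb, or 0.681% of the autosomal bins, and held 16.3% of the autosomal reads. Their median length was 7 kb (quartiles 6 and 9 kb), with 373 domains of 10 kb or more, 57 of 15 kb or more, 13 of 20 kb or more and a maximum of 26 kb. The median density was 9.46 (5th to 95th percentile 4.70 to 14.6), against an autosomal mean of 0.398. The threshold cut through a continuous range of lengths: 845 domains were 6 kb long with a median of 527 reads, and 1406 runs fell just short at 5 kb with a median of 438 reads and nearly the same density (9.81 and 9.79). In 271 domains the weakest bin held exactly 20 reads, and 109 of the 5-kb runs had a neighbouring bin of 19 reads. The GFI1-KD library gave domains of the same median length (7 kb) and a mean of 7.84 kb against 7.81 kb.

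**Figure D1:**
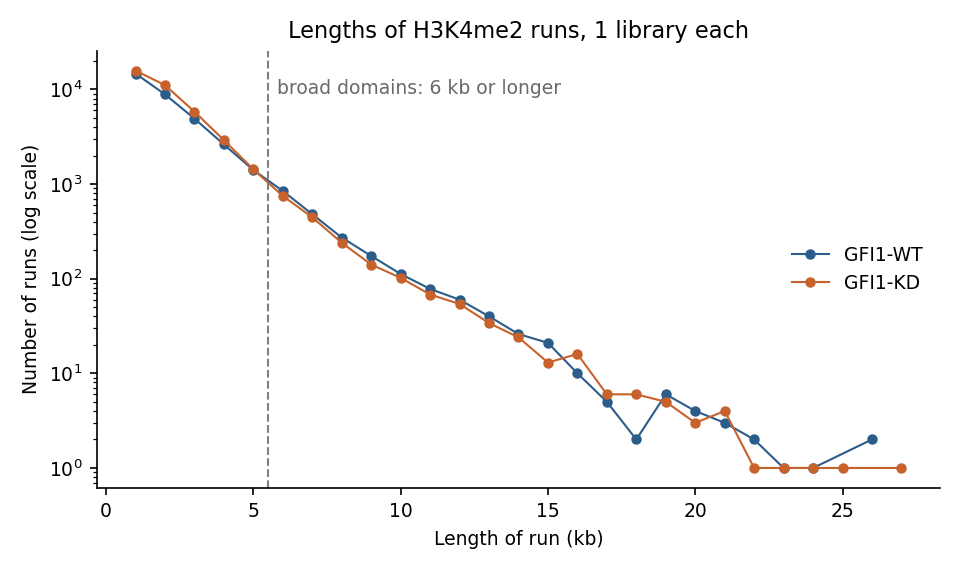
Number of runs of bins with 20 or more reads (log scale) against run length in kb, with 1 point per length and library and no point where no run had that length. The GFI1-KD library had more runs of 1 kb (15792 against 14701) and fewer at 6 kb (749 against 845), where the dashed line marks the domain threshold.

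Most domains sat on the start of a protein-coding gene. A coding 5′ end lay in 1784 of them (83.2%), and another 267 (12.5%) overlapped a coding gene, in part or whole, without holding its 5′ end. A further 56 (2.61%) met only noncoding genes and 37 (1.73%) were intergenic. The share with a coding 5′ end went up with run length, from 7.66% of 1-kb runs to 82.2% of 6-kb domains and 94.7% of those of 15 kb or more. The 5′ ends in domains belonged to 2178 of 20665 autosomal coding genes (10.5%). In the GFI1-KD library they belonged to 1789 genes (8.66%), and 1352 genes were in both sets, which is 62.1% of the first and 75.6% of the second. A single coding gene started in 1408 domains, a pair in 337 and 3 or more in 39.

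The domains reached mainly into the gene. Of 828 domains with a single coding 5′ end, 726 (87.7%) extended further downstream than upstream, on average 4.98 kb into the gene and 1.87 kb before it. The mean density peaked 700 bp after the 5′ end, at 18.1 in GFI1-WT and 17.6 in GFI1-KD, and dipped to 11.3 and 10.6 at the start itself. At 3100 bp downstream it was still 6.15 and 5.33. The 5597 5′ ends in shorter runs had a peak of similar height (16.8 and 17.0 at 300 bp), but the density at 3100 bp was 0.964 and 0.953. What set the domains apart in this profile was therefore their reach and not the height of the peak, a property that the length rule itself selects.

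**Figure D2:**
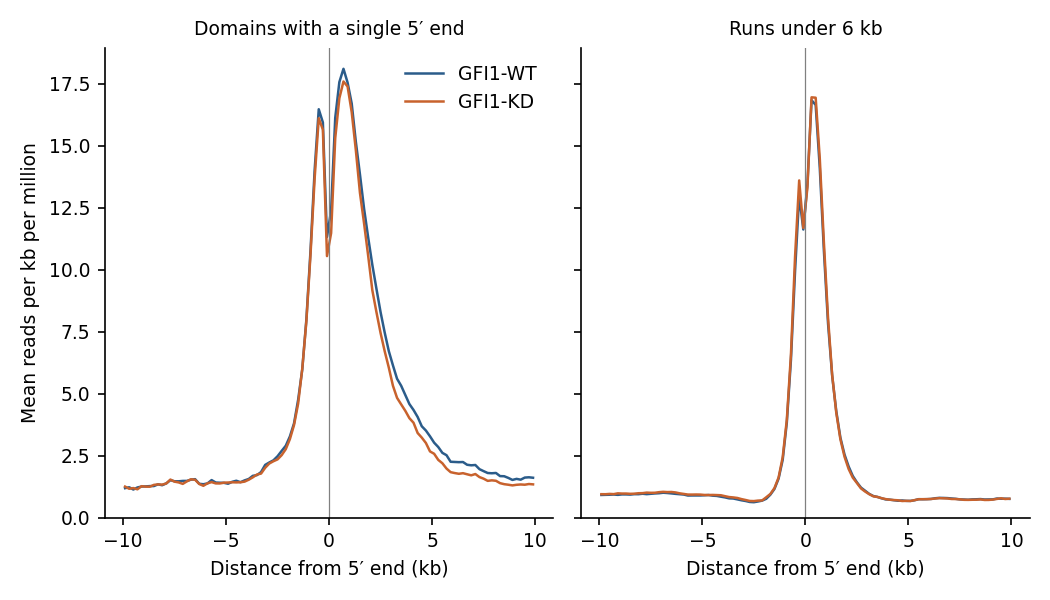
Mean H3K4me2 density (RPKM) against distance from the coding 5′ end in kb, with positive distances inside the gene, for the 828 domains with a single 5′ end and for 5′ ends in runs under 6 kb, with 1 line per library. Peaks are of similar height, while at 3100 bp downstream the domains held 6.15 in GFI1-WT and 5.33 in GFI1-KD and the shorter runs held 0.964 and 0.953.

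Some genes carried several separate domains. In all, 148 coding genes met 2 or more domains and 17 met 3 or more. Ccdc88c, Gse1, Mideas and Tbc1d2b met 4 each. Gse1, a partner of the LSD1 and CoREST complex, had an 18-kb domain with a ratio of 0.700 and a 12-kb domain with a ratio of 0.967. A domain that overlapped the gene without a 5′ end had a ratio of 0.110. The genes with 3 included the blood transcription factors Fli1, Elf1, Foxp1 and Rara, the histone deacetylase Hdac7 and the coactivator Zmiz1. Rara, the retinoic acid receptor, had 994 and 1649 reads in one domain (ratio 1.56) and 640 and 1030 in another (1.51). Neighbouring domains lay within 10 kb of each other in 133 cases, and 22 of these were 1 bin apart.

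Between the libraries the domains kept most of their signal, and a minority differed in either direction. In the GFI1-WT domains the median density was 9.46 in GFI1-WT and 8.94 in GFI1-KD, and the median log2 ratio was -0.13 (SD 0.68 across domains). The sign of this median depended on the library that chose the domains and on the scaling: it was 0.17 over domains chosen in GFI1-KD, -0.01 over 2040 domains chosen on the sum of both libraries, and 0.22 with scaling to low bins. At least 1.5-fold higher in GFI1-KD were 144 domains (6.72%, against 21.1% of all runs), and at least 1.5-fold lower were 294 (13.7%, against 22.2%). All runs include 14701 of 1 kb, with a median density of 3.13 in GFI1-WT. Such runs hold fewer reads than a domain, so their ratios carry more counting error and the shares are not on equal terms. The excess of lower domains is in the direction that the choice favours, and scaling to low bins gave 387 higher and 153 lower. Of domains chosen in GFI1-KD, 508 were higher (26.5%, against 44.9%) and 6 lower (0.313%, against 3.31%). Chosen on the sum, an alternative added after the data were seen, 322 (15.8%) were higher and 129 (6.32%) lower.

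By overlap, 1260 of the 2144 domains (58.8%, interval 56.7 to 60.9%) were at least 50% covered by a GFI1-KD domain, 1280 met one at all and 864 (40.3%) met none. Most of the latter still had a bin with 20 or more reads in GFI1-KD, since only 54 of all 2144 domains had no such bin. Among all 2144, 853 had 20 or more reads in every bin, and in 900 the longest such stretch was under 6 kb. Conversely 641 of the GFI1-KD domains (33.5%) met no GFI1-WT domain. Of the 144 higher domains 138 met a GFI1-KD domain, and of the 294 lower ones 19 did. Density in GFI1-KD was at the autosomal mean or under it in 3 domains and at most 2 times that mean in 46.

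**Figure D3:**
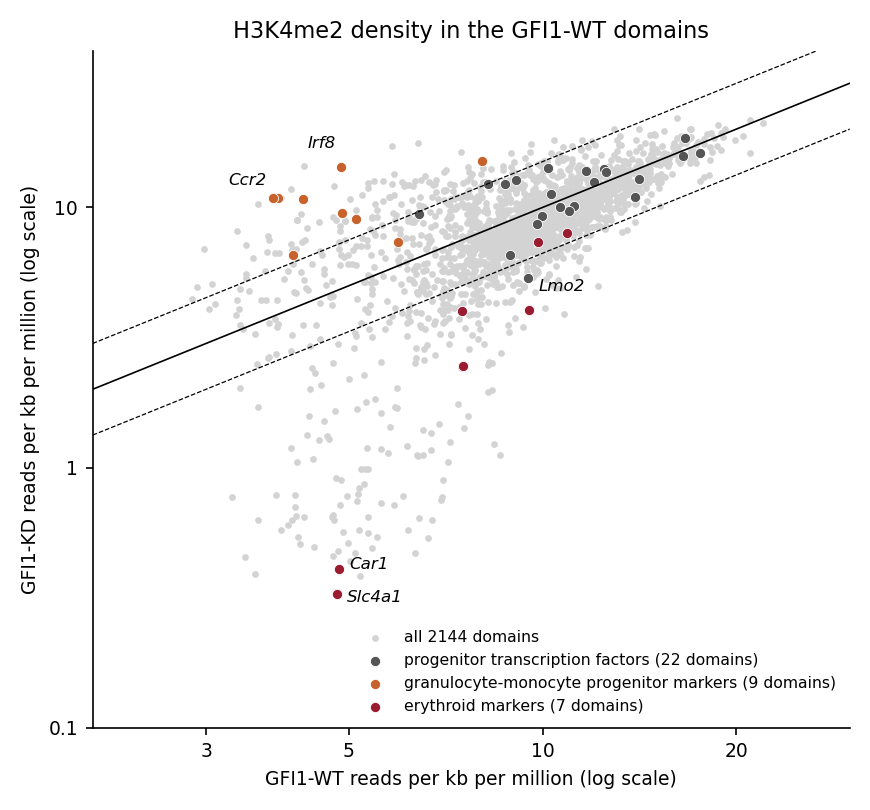
H3K4me2 density of each GFI1-WT domain in GFI1-WT (x axis) and GFI1-KD (y axis), in RPKM (reads per kb scaled to library size) on log scales. Grey points are all 2144 domains, coloured points are domains with genes of 3 marker lists, the solid line is equality and the dashed lines are 1.5-fold. Progenitor transcription factors lie along the diagonal, granulocyte-monocyte progenitor markers above it and erythroid markers, with Slc4a1 and Car1 lowest, below it.

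Several of the 12 longest domains lay on regulators of blood progenitors, and their ratios fell on both sides of 1. Cdk6, a cell cycle kinase of stem and progenitor cells, had a 26-kb domain (chr5:3338001-3364000) with 1743 GFI1-WT and 1297 GFI1-KD reads, a ratio of 0.698 (0.649 to 0.751), and 16 of its 26 bins reached 20 reads in GFI1-KD. Adgrg1, an adhesion receptor of stem cells, also had 26 kb (chr8:94976001-95002000), with 1516 and 1183 reads and a ratio of 0.732. Lmo2, the bridging protein of the GATA and Tal1 complexes, had 22 kb (chr2:103955001-103977000), with 1869 and 1119 reads and a ratio of 0.562 (0.521 to 0.605). Each of these held less H3K4me2 in GFI1-KD on both scales. So did the 20-kb domain of Zfpm1, the GATA1 cofactor (1593 and 1253 reads, 0.738), and the 21-kb domains of Rbm38, an RNA-binding protein of erythroid cells (1649 and 1295, 0.737), and Picalm, a clathrin adaptor (1340 and 809, 0.566).

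Some of the other long domains held more H3K4me2 in GFI1-KD, though not all of them were longer there. The 20-kb domain over Hoxa7, Hoxa9 and Hoxa10 (chr6:52215001-52235000), homeobox genes of progenitor self-renewal, held 1551 and 2744 reads, a ratio of 1.66 (1.56 to 1.77). The range per bin was 22 to 154 reads in GFI1-WT and 34 to 265 in GFI1-KD. The matching GFI1-KD domain was the longest of that library, 27 kb (chr6:52208001-52235000) that also took in Hoxa3 and Hoxa6, with 2034 GFI1-WT and 3635 GFI1-KD reads. The 24-kb Ptpre domain, of a receptor phosphatase, had a ratio of 1.24 (1040 and 1380 reads), the 22-kb Celf2 domain, of a splicing regulator, 1.22 (1273 and 1650) and the 20-kb Syne3 domain 1.13 (1150 and 1384). B3gnt2, a glycosyltransferase gene, had a 23-kb domain with the same coordinates in both libraries, 1863 and 2017 reads and a ratio of 1.02. The Fam107b domain (1280 and 1319 reads) had a ratio of 0.967. By length class the median log2 ratio was -0.12 at 6 kb, -0.14 at 7 to 9 kb, -0.16 at 10 to 14 kb and -0.24 at 15 kb or more, and it was -0.12 for runs of 5 kb, 0.11 at 2 kb and 0.06 at 1 kb. Other long GFI1-KD domains lay on Septin9 (24 kb, 1408 and 2387 reads, 1.59), Rassf4 (21 kb, 708 and 2000, 2.65) and the neutrophil protease genes Prtn3 and Elane (19 kb, 1075 and 2342, 2.04).

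Of the 8 domains with the lowest ratios, 3 lay on genes of red cells, namely Slc4a1, Hbb-bt and Car1. Slc4a1, the band 3 anion exchanger of the red cell membrane, had an 8-kb domain (chr11:102359001-102367000) with 343 GFI1-WT and 25 GFI1-KD reads, a ratio of 0.0684 (0.0436 to 0.103). That is 14.6-fold lower (9.74 to 22.9), with 20 to 78 reads per bin in GFI1-WT and 1 to 5 in GFI1-KD, so that no bin overlapped. The next was a domain overlapping Hbb-bt, an adult beta-globin gene, with 279 and 22 reads (0.0740). Car1, carbonic anhydrase of red cells, held 346 and 31 reads (0.0841), and Phyhip held 475 and 41 (0.0810). The remaining 4 of the lowest 8 were intergenic (chr13:58520001-58526000, 340 and 27 reads, 0.0745, and chr11:44508001-44514000, 270 and 25 reads, 0.0869) or overlapped Fntb (292 and 28, 0.0900) and Ift140 (274 and 27, 0.0924).

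Domains that followed, named after their values were seen, included more of the red cell membrane and its antigens. The beta spectrin gene Sptb had 338 and 35 reads. The adducin gene Add2 had 361 and 36. Kel (chr6:41698001-41707000), the Kell antigen whose promoter is printed above, had 518 and 55 reads and a ratio of 0.0996. Rhag, of the Rh complex, had 451 and 58, and Rhd had a ratio of 0.130. Sox6, a transcription factor of red cell maturation, had 277 and 33 (0.112). In all 76 domains were at least 4-fold lower in GFI1-KD: 54 of them had no bin with 20 reads there, 29 held a coding 5′ end and none met a GFI1-KD domain. Of the domains chosen on the sum, 18 were 4-fold lower. Red cell domains with smaller differences were those of Car2 (853 and 385 reads, 0.423), Epor, the erythropoietin receptor (403 and 229, 0.533), Tfrc, the transferrin receptor (684 and 531, 0.728), and the transcription factor Klf1 (528 and 423, 0.752). Outside the red cell genes, Il1rl1, the IL33 receptor of mast cells, had 360 and 67 reads (0.175) and Tgm2, transglutaminase 2, 311 and 82 (0.247).

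Of the 8 domains with the highest ratios, 4 lay on genes known from monocytes, granulocytes or their progenitors, namely Irf8, Ccr2, Ms4a3 and Siglece. Irf8, the transcription factor of monocyte and dendritic cell fate, had an 11-kb domain (chr8:120735001-120746000) with 478 GFI1-WT and 1499 GFI1-KD reads, a ratio of 2.94 (2.65 to 3.27). The bins held 22 to 81 reads in GFI1-WT and 27 to 215 in GFI1-KD. The highest ratio was that of Tifab, an inhibitor of TRAF6 signalling (chr13:56173001-56180000), with 267 and 962 reads and 3.38 (2.95 to 3.89). Ccr2, the chemokine receptor of inflammatory monocytes, held 278 and 831 reads (2.80). Ms4a3, a membrane protein of granulocyte-monocyte progenitors, held 205 and 623 (2.85), Siglece 226 and 691 (2.87) and the acute phase gene Hp, haptoglobin, 211 and 623 (2.77). The others of the highest 8 were a domain overlapping Plec (313 and 982, 2.94) and an intergenic one (chr1:164083001-164089000, 218 and 674, 2.90). Csf2rb, the shared beta chain of the GM-CSF, IL3 and IL5 receptors, followed with 340 and 922 reads (2.54) and 24 to 86 against 64 to 206 reads per bin, and Ctsg with 266 and 718 (2.53).

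Domains chosen in the GFI1-KD library, where the choice favours GFI1-KD, had larger ratios still. The highest overlapped Nrg1, with 84 GFI1-WT and 826 GFI1-KD reads and 9.23 (7.36 to 11.7). A domain overlapping Cd86, the T cell costimulator of antigen-presenting cells, held 45 and 367 reads (7.65). Selp, P-selectin, held 78 and 471 (5.67), Gpr35, a G protein-coupled receptor, 157 and 807 (4.82), F13a1, the factor XIII subunit of monocytes and platelets, 165 and 691 (3.93) and Mmp8, neutrophil collagenase, 127 and 529 (3.91). Higher domains of the GFI1-WT choice had a lower median density in that library than the domains that differed less than 1.5-fold, namely 6.08 (11.2 in GFI1-KD) against 10.0 (9.38 in GFI1-KD) over 1706 domains. Lower domains had 7.22 and 3.70. A coding 5′ end was in 63.2% of the higher, 64.6% of the lower and 88.1% of the remaining domains.

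**Figure D4:**
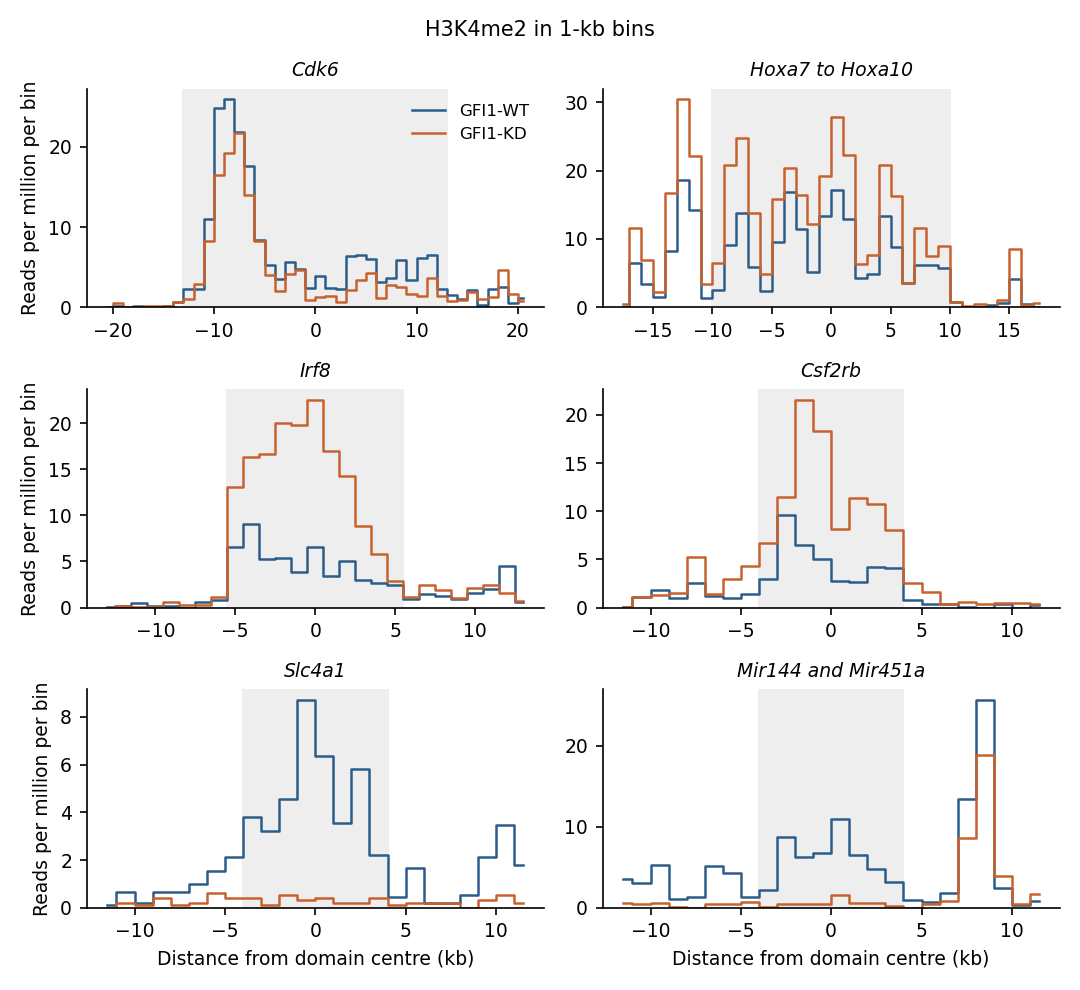
H3K4me2 reads scaled to library size (RPM) in each 1-kb bin against distance from the domain centre in kb, for 6 GFI1-WT domains (grey) and their flanks, with 1 line per library and a y axis of its own in each panel. Reads per bin in GFI1-WT and GFI1-KD ran from 22 to 81 and from 27 to 215 at Irf8, and from 20 to 78 and from 1 to 5 at Slc4a1, and at Cdk6 the highest bin held 232 and 207 reads and the lowest 20 and 7.

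Read by role, the regulators of blood progenitors were nearly all at broad domains in both libraries. The gene lists used here and below were chosen with earlier results of these data known. Some genes, such as Irf8, stand in several lists, so the counts are a description and not separate support. Of 22 progenitor transcription factors on the autosomes, 21 had their 5′ end in a GFI1-WT domain and 20 in a GFI1-KD one, and Mecom was the one outside in GFI1-WT. In windows of 3 kb on each side of the 5′ end with 40 or more reads, 3 of the 22 were 1.5-fold higher and 1 lower in GFI1-KD, with a median ratio of 1.09, and with scaling to low bins 7 were higher and 1 lower. Over all 14641 such gene windows 10.9% were higher and 5.27% lower, with a median of 0.973. The domains of Gata2 (1016 and 1184 reads, 1.09), Myb (1200 and 1158, 0.905), Bcl11a (2221 and 2255, 0.953) and Zeb2 (1.04) differed little, and for Myb and Bcl11a the sign depends on the scaling. Those of the ETS factors Erg (804 and 1259, 1.47) and Fli1 (815 and 1213, 1.40) and of the corepressor Cbfa2t3 (1174 and 1755, 1.40) held more in GFI1-KD. Tal1 held 1369 and 1148 reads (0.787). Runx1 had a pair of domains that differed from each other, 8 kb with 729 and 1079 reads (1.39) and 10 kb with 952 and 955 (0.941). The ratios of Tal1 and of the 10-kb Runx1 domain also pass 1 with scaling to low bins. Meis1, the cofactor of Hoxa9, had 15 kb with 1105 and 1765 reads (1.5).

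Among 21 genes of the Hoxa and Hoxb clusters, 3 were at GFI1-WT and 6 at GFI1-KD domains, and 13 windows were higher and 1 lower, with a median ratio of 1.65. Of 18 progenitor and cytokine receptors 9 were at domains in each library, and 9 windows were higher and 1 lower (median 1.42). Kit, the stem cell factor receptor, went against the others with 960 and 719 reads (0.703). Il6ra (411 and 881, 2.01), Csf3r, the G-CSF receptor (297 and 557, 1.76) and Cd34 (260 and 466, 1.68) held more reads in GFI1-KD.

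The targeted gene itself kept its domain in the library labelled GFI1-KD. Gfi1 had 8 kb with 668 and 794 reads, a ratio of 1.12 (1.00 to 1.24). The mark at the gene does not measure its transcript or protein, so this is no check of the label. Its paralog Gfi1b, which acts in red cells and platelets, had 8 kb with 750 and 492 reads (0.615). Of 15 members of the GFI1 and LSD1 complex list 7 were at GFI1-WT domains and 5 at GFI1-KD ones, and no window differed 1.5-fold (median 0.909). Rcor1, the CoREST scaffold, had a ratio of 0.942, Phf21a, its reader of unmethylated lysine 4, 0.904 and Zfp217 0.895. The 5′ end of Kdm1a was in no broad domain, and its window held 260 and 250 reads (0.902). Of 18 chromatin regulators 6 were at GFI1-WT and 8 at GFI1-KD domains with no window past 1.5-fold (median 0.964), including Kmt2a (0.908), Kmt2d (1.04), Kdm6b (0.975) and Ezh2 (0.829). Of 19 ribosomal protein genes, 6 were at GFI1-WT and 3 at GFI1-KD domains, also with no window past it (0.886). The medians of these 3 lists passed 1 with scaling to low bins, to 1.16, 1.23 and 1.13, and 1, 3 and 1 of their windows were then 1.5-fold higher.

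By their median ratios, the listed myeloid transcription factors and PU.1 targets held more H3K4me2 in GFI1-KD, and Irf8 is in both lists. Of 21 myeloid transcription factors 14 were at GFI1-WT and 16 at GFI1-KD domains, and 7 windows were higher and none lower (median 1.42), or 15 higher with scaling to low bins. Spi1, which encodes PU.1, had a 13-kb domain with 795 and 1426 reads (1.68), and Cebpa 622 and 1058 (1.60). Ratios were 1.37 at Cebpb, 1.24 at Cebpe, 1.08 at Cebpd, 1.59 at Klf2, 1.51 at Nfil3 and 1.14 at Jun. Id1, an inhibitor of basic helix-loop-helix factors, had 650 and 1221 reads (1.76). Of 22 PU.1 target genes 12 were at GFI1-WT and 15 at GFI1-KD domains, and 18 windows were higher and none lower (median 1.8). They include Mpeg1, perforin-2 of phagocytes (313 and 703, 2.11), Itgam, the CD11b integrin (255 and 482, 1.77), and the Fc receptor Fcgr3 (1.77). Subunits of the phagocyte oxidase had ratios of 1.48 (Ncf1) and 1.46 (Cyba), and Itgb2, Tyrobp and Syk had 1.38, 1.29 and 1.18. Of 18 retinoic acid response genes, 7 were at domains in each library, and of 16 windows 2 were higher and 1 lower (median 1.06), or 6 and 1 with scaling to low bins, with Rarg at 1.45, Dhrs3, a retinaldehyde reductase, at 1.06 and Hic1 at 0.971 (517 and 535 reads).

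Among markers of the cell types that lineage-negative marrow can hold, those of granulocyte-monocyte progenitors and of erythroid cells moved with the genotype label, in opposite directions. Of 13 autosomal granulocyte and monocyte progenitor markers, 9 were at GFI1-WT and 11 at GFI1-KD domains, and 12 windows were higher and none lower, with a median ratio of 2.5 and a summed density of 56.8 in GFI1-WT and 130 in GFI1-KD. Mpo, myeloperoxidase, had 437 and 910 reads (1.95), Prtn3, proteinase 3, 938 and 1873 (1.87) and Lyz2, lysozyme, 330 and 563 (1.60). Of 12 erythroid markers 7 were at GFI1-WT and none at GFI1-KD domains, and 9 windows were lower and none higher (median 0.313, summed density 65.7 and 33.3). Their defining members were close to 0 in GFI1-KD but not at it: windows held 125 and 8 reads at Hbb-bs, 153 and 23 at Hba-a1, 152 and 20 at Hba-a2, 200 and 14 at Car1 and 235 and 17 at Slc4a1. The 5′ end window of Ank1, ankyrin of the red cell membrane, differed little (0.971), while a 12-kb domain overlapping the gene (chr8:23048001-23060000) held 567 and 99 reads (0.164).

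Of 12 mature neutrophil markers, 5 windows were higher (Mmp8 4.03, Lcn2 2.35 and S100a8 2.33 among them) and 5 lower (Ngp 0.155, Retnlg 0.156 and Ltf 0.248 among them), with summed densities of 26.1 and 39.5. Of 11 megakaryocyte windows 3 were lower and none higher (median 0.852, which becomes 1.09 with scaling to low bins). B cell markers had 2 higher and 1 lower of 11 (summed density 20.4 and 22.9) and no domain. T and NK cell markers had 2 in each direction of 8, mast cell markers 1 in each direction of 8, and stromal markers 5 higher and 2 lower of 10 (18.2 and 24.1). Genes of unrelated tissues had 2 in each direction of 7 and summed densities of 9.70 and 10.5. With scaling to low bins, higher and lower windows numbered 0 and 7 for erythroid, 2 and 3 for megakaryocyte, 3 and 1 for B cell, 3 and 1 for T and NK cell, 7 and 1 for stromal and 4 and 0 for unrelated tissue genes. The part that the mixture of cells has in the lower and higher domains was not tested, and neither was that of the Y chromosome difference.

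Promoters in the domains were richer in CpG than promoters at large, and the domains that differed were less so. Over the 300 bases from 250 before to 50 after each RefSeq start, the observed to expected CpG ratio had a median of 0.813 in 2247 domain promoters, 0.766 in 10061 promoters of shorter runs, 0.204 in 7777 promoters of neither and 0.586 in all 20085. A ratio of 0.6 or more was found in 76.0% of domain promoters, 73.9% of those in shorter runs and 48.9% of all. It was found in 33.3% of 102 promoters in the higher domains, 64.7% of 190 in the lower ones, 79.3% of 1955 in the remaining ones and 9.52% (2 of 21) in those 4-fold lower. Irf8 (1.03) and Cdk6 (0.851), whose sequences are printed above, were CpG-rich, and Siglece (0.0448), Kel (0.0612), Ctsg (0.464) and Rhd (0.465) were not.

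Letters bound by lineage factors were distributed unevenly among these promoters. AGATAA, searched on both strands, occurred in 9.57% of all promoters, 6.63% of domain promoters, 8.82% of those in higher domains, 13.7% in lower ones and 42.9% (9 of 21) in those 4-fold lower. GAGGAA occurred in 27.2% of all, 25.9% of domain promoters, 41.2% (42 of 102) in higher domains, 22.6% in lower ones and 23.8% in those 4-fold lower. CCGGAA, the ETS core, occurred in 19.1% of all and 26.3% of domain promoters, AAATCA, the core bound by GFI1, in 12.2% and 5.61%, and the C/EBP palindrome TTGCGCAA in 0.219% and 0.579%. AAATCA was in 10.8% of promoters in higher domains, 4.74% in lower ones and 5.42% in the remaining ones. Promoters in neither a domain nor a shorter run held AGATAA in 15.5%, GAGGAA in 29.4%, CCGGAA in 5.43%, AAATCA in 19.9% and TTGCGCAA in 0.103%. Promoters in shorter runs held AGATAA in 5.65%, GAGGAA in 25.7%, CCGGAA in 28.0%, AAATCA in 7.66% and TTGCGCAA in 0.229%. The ETS core was thus no more frequent in domain promoters than in those of shorter runs. Matches of different motifs may overlap. Such matches describe the letters and do not locate a bound factor, and promoters poor in CpG differ in base composition from the rest.

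RNA from the transformed progenitors was a readout that the domain rule did not use. The KO libraries lost nearly all Kdm1a reads: H9M CTL libraries had 138, 140 and 139 library-scaled counts (CPM) and H9M KO libraries 0.937, 0.998 and 0.952 (log2 fold change -7.15 ± 0.07 SE). MN1 CTL libraries had 187, 193 and 192 CPM and MN1 KO libraries 1.41, 1.28 and 1.58 (-7.06 ± 0.06). Of the 2178 domain genes 2141 were matched to the count table and 2060 (94.6%) passed the filter on low counts, against 58.1% of all autosomal coding genes. Genes that are off in these cells are thus not in the counts that follow. The KO and ATRA comparisons of a model share their CTL libraries.

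Loss of LSD1 changed the RNA of most domain genes by small amounts, in both directions (edgeR's quasi-likelihood test with Benjamini-Hochberg adjustment over 14663 genes). In H9M KO, 675 domain genes rose (32.8%, against 26.1% of all tested genes) and 667 fell (32.4%, against 25.4%), with a median log2 fold change of -0.00. In MN1 KO, 622 rose (30.2%, against 28.7%) and 740 fell (35.9%, against 26.3%), with a median of -0.03. Changes of 2-fold or more were mostly upward: 128 rose and 11 fell in H9M KO, and 113 rose and 13 fell in MN1 KO, where all tested genes gave 1273 and 241, and 1449 and 210. ATRA changed fewer. In H9M 404 were higher (19.6%, against 12.9%) and 347 lower (16.8%, against 12.3%). In MN1 353 were higher (17.1%, against 11.4%) and 344 lower (16.7%, against 10.4%). Domain genes also had more RNA, with median CTL levels of 67.2 CPM in H9M and 66.4 in MN1. All tested genes had 18.6 and 18.95. The part that higher counts have in these shares was not tested. Of 8849 tested genes at shorter runs, 27.7% rose and 29.5% fell in H9M KO, and 30.98% and 31.3% in MN1 KO. Under ATRA the shares at shorter runs were 13.8% and 14.5% in H9M, and 11.9% and 11.5% in MN1.

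Genes at the domains higher in GFI1-KD mostly rose after LSD1 loss. Of 96 tested genes at these domains, 70 rose (72.9%, against 26.1% of all tested genes) and 14 fell (14.6%, against 25.4%) in H9M KO. Their median log2 fold change was 0.53. In MN1 KO 76 rose (79.2%, against 28.7%) and 6 fell (6.25%, against 26.3%), with a median of 0.68. Under ATRA these genes were called in both directions, at higher shares than all tested genes. Their median CTL level was also higher than that of all tested genes, 78.2 CPM in H9M and 31.07 in MN1. In H9M 30 rose (31.3%, against 12.9%) and 31 fell (32.3%, against 12.3%), and in MN1 40 rose (41.7%, against 11.4%) and 21 fell (21.9%, against 10.4%). Genes at domains chosen on the sum of both libraries gave 150 higher (75.4%) and 23 lower (11.6%) of 199 in H9M KO, and 152 (76.4%) and 16 (8.04%) in MN1 KO. Genes at the domains lower in GFI1-KD were called at shares closer to those of all domain genes: of 177, 53 rose and 47 fell in H9M KO (29.9% and 26.6%) and 55 rose and 65 fell in MN1 KO (31.1% and 36.7%). Of 29 genes at the domains 4-fold lower 13 passed the count filter, of which 5 rose and 1 fell in H9M KO and 7 rose and 2 fell in MN1 KO. The RNA comes from other cells than the H3K4me2, and no test of these groups of genes as sets was made.

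**Figure D5:**
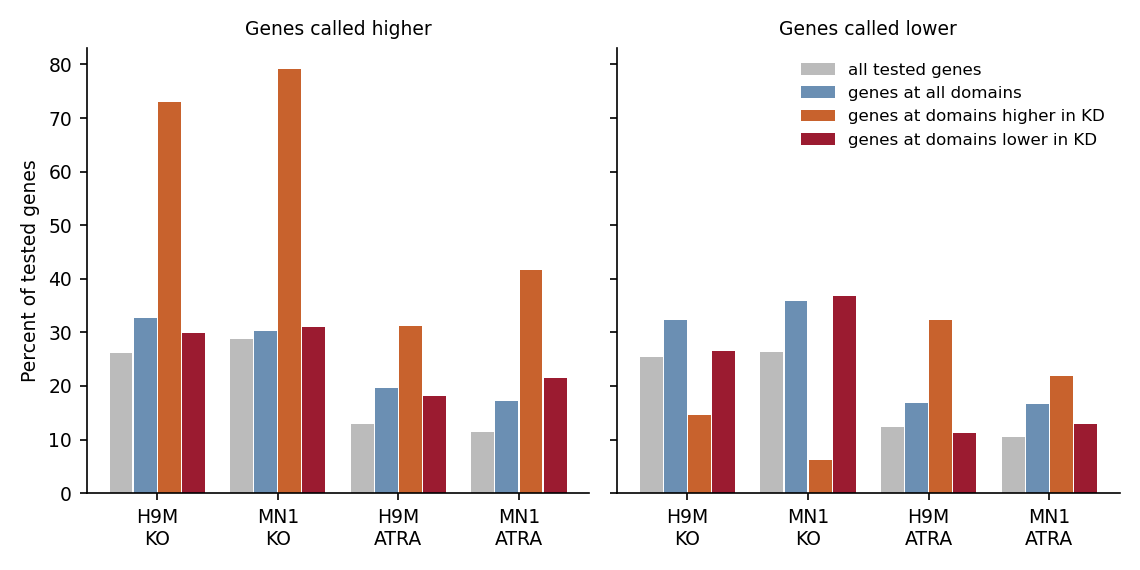
Percent of tested genes called higher (left) or lower (right) at an adjusted p under 0.05 in 4 RNA comparisons of 3 against 3 libraries, for all tested genes, genes at all domains, and genes at domains 1.5-fold higher or lower in GFI1-KD. At the higher domains 72.9% of genes rose in H9M KO and 79.2% in MN1 KO, against 26.1% and 28.7% of all tested genes.

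Irf8 was among the domain genes with the largest rise in H9M KO. Its 3 CTL libraries had 7.75, 8.77 and 7.65 CPM and its 3 KO libraries 395, 390 and 401 (log2 5.63 ± 0.06, adjusted p 9.47e-35 by edgeR), so the groups were far apart. In MN1 KO it rose less, from a mean of 8.95 to 24.6 CPM (1.46 ± 0.06). Gfi1b rose from 0.116, 0.142 and 0.157 to 112, 128 and 116 CPM in H9M KO, a fitted log2 change of 9.71 that rests on 11 control counts. In MN1, where it was on in the controls (72.9, 70.7 and 65.9 CPM), it rose to 472, 478 and 475 (2.76 ± 0.05). Gfi1 rose in both, from 216, 220 and 233 to 295, 296 and 302 in H9M KO (0.43 ± 0.04) and from 107, 113 and 120 to 297, 285 and 291 in MN1 KO (1.35 ± 0.04).

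Cntnap1, Plekhh3 and Ccr10 start in 1 domain, which had an H3K4me2 ratio of 2.23. Cntnap1 had the largest rise in MN1 KO among domain genes with 5 CPM or more in the higher group. Ccr10 was under that level there and had no counts in the MN1 CTL libraries. Cntnap1 went from 1.17, 1.36 and 1.44 to 20.6, 20.2 and 20.2 CPM (3.93). Tmem268 (ratio 1.74) rose from 0.193, 0.248 and 0.275 to 82.6, 88.3 and 82.5 CPM in H9M KO and by 3.56 in MN1 KO. The other named rises were Ccr10 (4.47) and Kcna3 (4.20) in H9M KO, and Camsap2 (3.49, ratio 0.832) and Plekhh3 (3.28, ratio 2.23) in MN1 KO. Spi1 itself changed little, from 158, 164 and 164 to 180, 178 and 186 CPM in H9M KO (0.18 ± 0.04, adjusted p 0.000415) and by 0.18 in MN1 KO (0.000685).

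The largest fall among the named domain genes was that of Tgm2, in both models. It went from 116, 117 and 120 to 0.893, 0.798 and 1.39 CPM in H9M KO (-6.79 ± 0.09, adjusted p 1.5e-31 by edgeR), and from 68.8, 68.4 and 65.2 to 3.74, 3.37 and 3.20 in MN1 KO (-4.30 ± 0.07). Its domain was also lower in GFI1-KD (0.247). Car2, with a domain ratio of 0.423, fell in H9M KO from 69.8, 63.1 and 58.0 to 16.3, 14.6 and 14.7 CPM (-2.06 ± 0.07). Tgfbi, a matrix protein of monocytes with a ratio of 2.30, fell in MN1 KO from 37.4, 38.1 and 39.1 to 10.6, 9.38 and 10.1 CPM (-1.93) but rose in H9M KO (2.11). Further named falls were Tuba8 (-1.42), Acss1 (-1.08) and Fbxo7 (-1.04) in H9M KO, and Acss1 (-1.55), Tshz1 (-1.51) and Vegfa (-1.42) in MN1 KO.

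At the highest H3K4me2 ratios most genes rose after LSD1 loss, by amounts that were not tested for a difference between the models. Tifab had a mean of 214 CPM in H9M CTL and 599 in H9M KO (1.5), and 3.40 and 6.16 in MN1 (0.86). Ms4a3 rose in MN1 KO from 53.5 to 287 CPM (2.41), with 689 and 782 in H9M (0.20). Ccr2 rose in H9M KO from 42.8 to 237 CPM (2.49), with 502 and 576 in MN1 (0.19, adjusted p 0.032 by edgeR). Hp rose in both (2.53 and 2.33), and so did Csf2rb (0.77 and 1.24), Hs3st3b1 (1.19 and 2.33), Mpo (0.60 and 1.07), Il6ra (1.79 and 1.08) and Mpeg1 (3.60 and 0.66). Ctsg, in contrast, fell slightly in H9M KO (-0.21) and was not called in MN1 KO (0.06, adjusted p 0.202). Siglece went from 0.411 to 5.73 CPM in H9M KO (3.79).

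Few genes of the lowest domains could be read in these cells. Slc4a1, Car1 and Kel did not pass the count filter. Rhd rose at low levels in both KO comparisons, from 0.152 to 0.837 CPM in H9M (2.44) and from 0.189 to 1.2 in MN1 (2.61). Uros, a heme synthesis enzyme, rose by 0.28 and 0.26, and Phyhip was called in no comparison. Il1rl1 was expressed in MN1 cells, with means of 105 CPM in CTL and 102 in KO (adjusted p 0.456 by edgeR).

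The genes of the 12 longest domains moved by less than 2-fold after LSD1 loss. In H9M KO the called changes were Picalm 0.55, Ptpre 0.28 and Celf2 0.23 upward, and Adgrg1 -0.38, Fam107b -0.37, Cdk6 -0.25, and Rbm38 -0.13 downward. B3gnt2 (-0.35, adjusted p 0.149), Zfpm1 (-0.14, 0.0749), Lmo2 (-0.01, 0.746) and Syne3 (-0.03, 0.657) were not called by edgeR. In MN1 KO Syne3 (0.51), Celf2 (0.42), Ptpre (0.37), Hoxa7 (0.33) and Fam107b (0.21) rose, and Hoxa10 (-0.30), Zfpm1 (-0.22) and Lmo2 (-0.16) fell. Cdk6 (0.01, 0.865), Adgrg1 (0.00, 0.946), Picalm (0.06, 0.426) and Rbm38 (-0.07, 0.181) were not called there. Hoxa9 fell by 0.26 in H9M KO and by 0.23 in MN1 KO, and Meis1 rose by 0.22 in H9M KO, where the counts do not tell the transforming copies from the cells' own genes. Hoxa7 and Hoxa10 had no counts in H9M CTL and KO, and Meis1 had none in MN1 CTL and KO.

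Under ATRA the largest fitted rise among the named domain genes was that of Hic1 in both models. Hic1, a transcriptional repressor, went in H9M from 0, 0.106 and 0.0785 to 17.1, 16.6 and 16.4 CPM (fitted log2 7.99, resting on 5 control counts) and in MN1 from 0.113, 0.194 and 0.164 to 11.4, 4.41 and 5.06 (5.41, on 14 counts). Mmp9, gelatinase B, rose in H9M from 0.810, 0.781 and 0.824 to 17.9, 15.7 and 14.1 (4.34). Car2 rose in MN1 from 143, 125 and 132 to 637, 597 and 632 (2.20 ± 0.05, adjusted p 2.62e-23 by edgeR). Rab37 rose in both (2.81 and 1.74), Tom1l1 (3.22) and Itgb7 (2.59) in H9M, and Smad3 (1.88) and Grtp1 (1.8) in MN1.

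Some granule and monocyte genes whose domains were higher in GFI1-KD were among the falls under ATRA, and Itgb7, with a domain ratio of 2.08, was among the rises. Mpo fell in H9M from a mean of 5516 to 1446 CPM (-1.89 ± 0.04, adjusted p 1.96e-26 by edgeR). Ms4a3 fell in MN1 from 47.6, 53.5 and 59.5 to 10.7, 12.9 and 14.1 (-2.12 ± 0.08), Ccr2 from 513, 494 and 499 to 237, 297 and 281 (-0.91), Lyz2 by 0.99 and Ctsg by 0.80. Ccr2 rose in H9M instead (0.52). Zfp608, a zinc-finger gene with a ratio of 1.28, fell by 0.82 in MN1. In H9M the other named falls were Tspoap1 (-2.23), Clec12a (-1.10), Cpne2 (-1.07) and Nkg7 (-0.94). Of the longest domains, Zfpm1 rose by 0.91 and Adgrg1 by 0.32 in H9M, and in MN1 Rbm38 rose by 0.45 and Adgrg1 fell by 0.51. Tifab (0.11, adjusted p 0.563) was not called in MN1, and Csf2rb in neither model (adjusted p 0.699 in H9M and 0.334 in MN1, by edgeR).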

How the data were processed

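H3K4me2 was read from 2 tables of aligned reads (position, strand and mapping quality score), as deposited by the authors, and RNA from a deposited table of gene counts for 24 libraries in 8 groups of 3. Per the submitters' processing notes, BWA, CASAVA 1.8.2 and bedtools 2.27.0 were used for the former and STAR 2.5.3 for the latter, on mm10 (GRCm38). The counting tool and its strand setting are not named in the labels, so overlapping and antisense genes could not be told apart. The deposited reads numbered 9000433 (GFI1-WT) and 9588899 (GFI1-KD), of which 99.4% and 99.5% had a mapping quality score of 10 or more. The deposited reads of the RNA libraries summed to 22402558 to 32674685 counts.

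Domains, ratios with exact 95% intervals and overlaps were computed with Python 3.11.15, numpy 2.4.6, pandas 2.3.3 and scipy 1.17.1. Genes and sequences came from RefSeq for GRCm38.p6. RNA was tested with edgeR 4.0.16 (R 4.3.3, quasi-likelihood, TMM, low-count filter) in 1 fit over all 24 libraries, with 14663 genes tested, a biological coefficient of variation of 4.01% and a Benjamini-Hochberg adjusted p of 0.05. DESeq2 1.42.0 was an alternative. Both scripts were tested on simulated data. The 2 groups that combine KO and ATRA entered the fit but no comparison. Libraries of H9M and MN1 carry different run tags. Of 48795 count table genes 48349 matched a symbol.

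Named domains were the 12 longest, the 8 highest and the 8 lowest by ratio, and those with genes of 18 lists. Named RNA results were the 5 largest and 5 smallest log2 fold changes among called domain genes with 5 CPM or more in the higher group (no clone names), the genes of the 12 longest domains, and Kdm1a, Gfi1, Gfi1b, Spi1, Hoxa9 and Meis1. Some genes that these rules take are not reported here. The domains and lists were chosen with earlier results of these data known. Fold changes are shrunken slightly by edgeR's prior count.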

Additional observations from a re-analysis of the deposited data

Results flagged for a closer look

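Of 72 differences between the models (MN1 minus H9M) in the log2 fold changes of named domain genes, 45 passed the edgeR interaction test, 23 for LSD1 loss and 22 for ATRA. The H9M and MN1 libraries carry different run tags, and whether this has a part in the differences was not tested. In 6 cases the models moved in opposite directions and both changes were called. Tgfbi rose by 2.11 in H9M KO and changed by -1.93 in MN1 KO, a difference of -4.04 (adjusted p 2.74e-25). Fam107b had -0.37 and 0.21 (difference 0.58, 1.66e-09). Under ATRA, Ccr2 had 0.52 in H9M and -0.91 in MN1 (difference -1.44, adjusted p 2.88e-10), Adgrg1 0.32 and -0.51 (-0.83, 4.14e-13), Hoxa9 0.46 and -0.17 (-0.62, 7.93e-08) and Ptpre 0.16 and -0.11 (-0.27, 0.000469).

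After LSD1 loss the rise was smaller in MN1 for Gfi1b (-6.95), Tmem268 (-4.90), Irf8 (-4.17) and Kcna3 (-2.41), of which Gfi1b and Tmem268 had almost no counts in the H9M controls. It was larger in MN1 for Cntnap1 (2.55), Plekhh3 (1.94), Camsap2 (1.83), Gfi1 (0.92) and Celf2 (0.19). Ccr10 (4.56) had no count in the MN1 controls, so its difference depends on the prior count. Falls were smaller in MN1 for Tgm2 (2.5), Car2 (1.06) and Tuba8 (0.59) and larger for Acss1 (-0.47), Tshz1 (-0.95) and Vegfa (-0.53). For genes of the longest domains the differences were 0.54 for Syne3, 0.38 for Adgrg1, 0.27 for Cdk6, -0.14 for Lmo2 and -0.50 for Picalm.

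Under ATRA, the differences of genes with an H3K4me2 domain at a myeloid gene were 1.11 for Mpo, 0.78 for Clec12a, -0.47 for Ctsg, -0.93 for Lyz2 and -1.32 for Ms4a3. Those of the other named genes were 2.08 for Tspoap1, 0.80 for Car2, 0.39 for Cpne2, -0.91 for Zfp608, -1.07 for Rab37, -1.11 for Itgb7 and -3.07 for Tom1l1. Among Gfi1 and the longest domains they were 0.43 for Rbm38, 0.23 for Gfi1, 0.22 for Syne3, -0.15 for Lmo2, -0.29 for Celf2 and -0.73 for Zfpm1.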

How the results depend on the processing

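The number of domains moved with the rule. With 30 reads per bin there were 1195 GFI1-WT domains (1180 in GFI1-KD) and 1273 domain genes. With 5 bins there were 3550 (3345), a median length of 6.0 kb and 3461 genes, and with 8 bins 819 (721), 9.0 kb and 877 genes. The median log2 ratio was -0.1254 with 5 bins, -0.1466 with 8 bins, -0.1357 with bins shifted by 500 bases and -0.1194 with 1 low bin allowed. It turned positive for domains chosen in GFI1-KD (0.1685) and with scaling to bins with under 10 reads (0.2220), and was -0.0074 for domains chosen on the sum, an alternative added after seeing the data. The counts of domains 1.5-fold lower and higher became 153 and 387 with that scaling and 129 and 322 on the sum. The overlap share was 42.2575% at a 90% overlap and 55.0373% with the read number scaled to depth. In MN1 ATRA 30.6533% of genes at sum-chosen higher domains rose, against 41.7%.

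Leaving out 1 library at a time, domain genes called higher and lower were 634 to 650 and 606 to 640 in H9M KO, 581 to 622 and 645 to 714 in MN1 KO, 331 to 385 and 276 to 347 in H9M ATRA, and 285 to 310 and 223 to 321 in MN1 ATRA, where 223 was without MN1 CTL replicate 1. At the higher domains the counts were 69 to 70 and 14 to 16, 73 to 77 and 6 to 7, 26 to 28 and 28 to 30, and 33 to 39 and 16 to 20. Replicate numbers did not pair the libraries (correlations of same-numbered deviations from -0.40 to 0.65, and not each library was closest to its own number). With the replicate number as a block, the calls were 679 and 667, 621 and 745, 410 and 359, and 351 and 349, and at the higher domains 70 and 17, 75 and 6, 29 and 31, and 41 and 21. Among other values 1223 stayed on the same side of the threshold, and those called kept their direction. Uncalled values near 0 could change sign, such as Lmo2 in H9M KO (-0.0324 to 0.005 with 1 library left out). Of the rest, 21 lost a call (those of Rbm38 in H9M KO, Kdm1a in H9M ATRA, and Gfi1, Hoxa9, Ptpre, Celf2 and Zfpm1 in MN1 ATRA) and 14 gained one. With 1 library per genotype, no alternative measures the spread between mice.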
